A study of Homo sapiens with 9 samples.

Results

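The genes described here encode the proteasome, the cell's main protease for proteins tagged with ubiquitin. They were the 47 genes of the count table whose symbol is PSM followed by a letter from A to G and a number. Membership was thus set by name, though the set was proposed with earlier results of these data known. The table held 34830 gene rows, and 1 further subunit gene that fits the name pattern was not analysed here. A filter on low counts left 17042 genes for the tests, 46 of the 47 members among them. The exception was PSMB11, a beta subunit of the thymus, with 2 counts in bone marrow library 1 and 0 in the other 8 libraries.

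RNA was measured in TC71 cells, an established Ewing sarcoma line, after growth in mice. The cells were placed in Matrigel under the skin of the flank of NSG mice, an immunodeficient strain without mature T, B and natural killer cells that still has its own myeloid cells. Tumour cells were recovered by flow cytometry once the flank tumour had reached its set size, from bone marrow (4 libraries), from lungs (4 libraries) and from the primary tumour (1 library). All 3 groups thus share the line, the host strain and the site of injection, no treatment or genetic change is named, and the ages of the mice are not given. The labels do not tie libraries to mice, so the p-values below rest on the spread among libraries, part of which may be technical, and the primary tumour has no replicate.

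The libraries came from a low-input kit that makes cDNA by template switching and amplifies it, and held 11550000 to 17910000 estimated counts each (rounded). Between 6.92% and 14.9% of the tested genes were at 0 in a given library. The libraries of any of the 36 pairs differed by far more than counting error (a chi-square of at least 87.1 for each degree of freedom), and the biological coefficient of variation common to all tested genes was 0.925. Of 8 markers of Ewing sarcoma, CD99, the surface marker used in diagnosis, stood at 299 to 779 counts per 1000000 (CPM). STEAP1 was at 574 to 1052 CPM, CCND1 at 128 to 313, PRKCB at 60.9 to 295 and NR0B1 at 41.4 to 185 CPM. NKX2-2 was lower, at 2.59 to 21.2 CPM, and LIPI was uneven, from 0.0704 CPM in lung 2 to 217 CPM in lung 3. FLI1, whose end is part of the EWSR1-FLI1 fusion gene of this tumour, did not pass the filter (0 to 0.764 CPM). Of 11 leukocyte markers, CD53, CD74, TYROBP and SPI1 stayed at or under 0.58 CPM in all libraries, while LCP1 reached 233, ITGB2 28.3, SRGN 22.4 and PTPRC 14.3 CPM. Of 8 markers of lung epithelium, SFTPA1, SCGB1A1 and SFTPC stayed at or under 0.745 CPM, while EPCAM reached 115 CPM and NKX2-1 stood at 8.99 to 13.2 CPM in all 9 libraries, with no difference between bone marrow and lung that passed edgeR's test. Since these are bulk samples, fewer cells of a type and less RNA per cell cannot be told apart. Host cells are mouse cells, while the counts are of human genes. The leukocyte and lung markers could reflect host cells only through mouse reads counted for human genes. How far that occurred was not tested.

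The proteasome core particle is a barrel of stacked rings. Alpha subunits (PSMA genes) form the outer rings and gate the entry, and beta subunits (PSMB genes) form the inner rings, of which PSMB5, PSMB6 and PSMB7 carry the active sites. A regulatory cap of ATPases (PSMC genes) and non-ATPase subunits (PSMD genes) binds ubiquitin chains, unfolds the substrate and feeds it into the barrel. Interferon signalling can replace the catalytic beta subunits by others, among them PSMB8 and PSMB10, which gives the immunoproteasome of immune and inflamed cells, and the PSME genes encode caps that bind the same barrel. Tumour cells with a high load of protein synthesis lean on this machinery, and it is the target of bortezomib and related drugs.

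Proteasome genes were abundant and, for the most part, steady. The 47 members together took up 1.8% to 2.49% of the counts of a library, and the median member stood at 217 CPM on average over the libraries, against 6.05 CPM for the median tested gene. The spread between libraries of the same site, as a standard deviation of log2(CPM + 1), had a median of 0.38 over the tested members and of 0.65 over all tested genes. Members and all tested genes differ in level, and no genes of like level were compared. Whether the lower spread goes beyond that difference in level was not tested. PSMD8, a subunit of the cap's lid, was the steadiest member with 0.16, at 201 to 282 CPM. At the other end were PSMB10 with 2.28, PSMA5 with 2.13, PSMB8 with 1.79 and PSMD3 with 1.18.

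**Figure D1:**
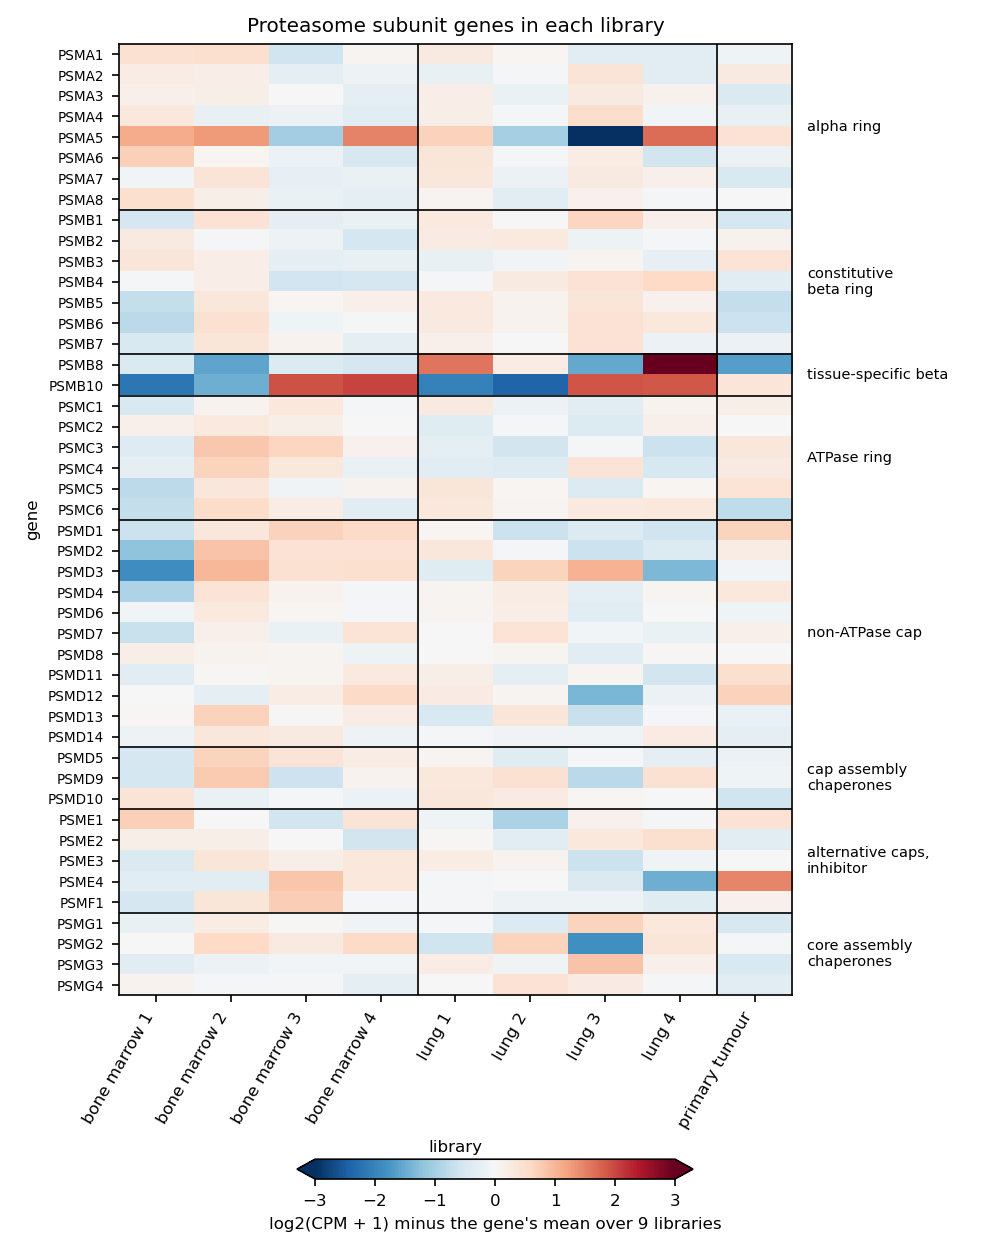
Each row is a tested proteasome gene, grouped by role, and each column a library; the colour gives log2(CPM + 1) minus that gene's mean over the 9 libraries, with values past 3 in either direction shown in the end colours. Most rows are pale, while PSMA5, PSMB8, PSMB10 and PSMD3 show strong colours that do not follow the site.

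PSMA5, an alpha-ring subunit that every proteasome needs, was the clearest case of a constitutive gene that was uneven between libraries. Its values were 117, 131, 25.5 and 153 CPM in bone marrow 1 to 4, then 88.1, 26.3, 1.24 and 174 CPM in lung 1 to 4, and 72.9 CPM in the primary library. Lung 3 was thus low by a wide margin while lung 4 was the highest of all, and the 2 sites overlapped. The cap subunit PSMD3 was uneven too, with lung 3 its highest library and bone marrow 1 its lowest. It had 3.92, 34.7, 23.3 and 23.9 CPM in bone marrow 1 to 4, 12.9, 27.3, 35.9 and 6.03 CPM in lung 1 to 4, and 15.9 CPM in the primary library. PSMG2, a chaperone that helps to assemble the alpha ring, ranged from 12.2 CPM in lung 3 to 73.6 CPM in lung 2.

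Levels of different genes were compared per kilobase of transcript, using the median length of each gene's coding transcripts in GENCODE release 29 (GRCh38). The subunits of the core particle are built into the barrel in equal numbers, but their transcript levels were far apart. PSMB1, a structural beta subunit, was first with 3291 ± 951 CPM per kilobase (SD, n = 9 libraries). PSMB5, the chymotrypsin-like subunit, followed with 1776 ± 437 and PSMB6, the caspase-like subunit, with 1669 ± 467 CPM per kilobase. PSMB6 and the alpha subunits PSMA7 (1526 ± 314 CPM per kilobase) and PSMA4 (1448 ± 303 CPM per kilobase) each differed from PSMB5 by less than the SD of PSMB5. PSMA2 followed with 1186 ± 223, PSMB4 with 893 ± 249, PSMA6 with 847 ± 246 and PSMB7, the trypsin-like subunit, with 841 ± 173 CPM per kilobase. PSMB3 stood at 492 ± 97.9 CPM per kilobase, apart from the genes above it by more than its spread.

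The low end of the core was set by PSMA1 (150.2 ± 38.2), PSMA3 (121 ± 20), PSMB2 (52.9 ± 9.23) and PSMA5 (33.5 ± 23.3 CPM per kilobase). The ratio of PSMB1 to PSMA5 was 98.2. The lengths used bear on this order: PSMB2 has coding transcripts of 2701 and 4217 bases and PSMA5 of 1504 and 3729 bases, whereas most core transcripts are near the group's median of 954 bases. PSMA8, the alpha subunit of the testis, stood at 2.01 ± 0.469 CPM per kilobase.

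The regulatory cap was lower per kilobase than the core, with a median of 97.8 CPM per kilobase over its 17 genes against 870.0 over 14 core genes (PSMA8 left out). Cap transcripts are longer (medians of 1590.0 and 954 bases), so division by length widens the gap. Undivided, the medians were 241 CPM for the cap and 825 CPM for the core with PSMA8. The part of transcript length bias in this difference was not tested. PSMD14, the enzyme that cuts ubiquitin chains off the substrate, led the cap with 663 ± 105 CPM per kilobase, followed by PSMD4, a receptor for ubiquitin chains, with 552 ± 127, and PSMD7, the partner of PSMD14, with 374 ± 82.8 CPM per kilobase. The ATPases ranged from PSMC3 (249.8 ± 93.7) to PSMC6 (87.9 ± 26.1 CPM per kilobase). PSMD3 was the lowest cap gene with 9.46 ± 5.35 CPM per kilobase. Outside core and cap, PSME2 reached 327 ± 74.2, PSMD10 231 ± 46.4 and PSMG3 109.9 ± 34.6 CPM per kilobase, and PSME4 was at 2.93 ± 1.9 CPM per kilobase. 12 members have pseudogenes named after them, 32 in all, of which PSMC1 has 13. Reads from such copies could be counted for the parent gene, so the levels of those 12 genes are uncertain to that extent.

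**Figure D2:**
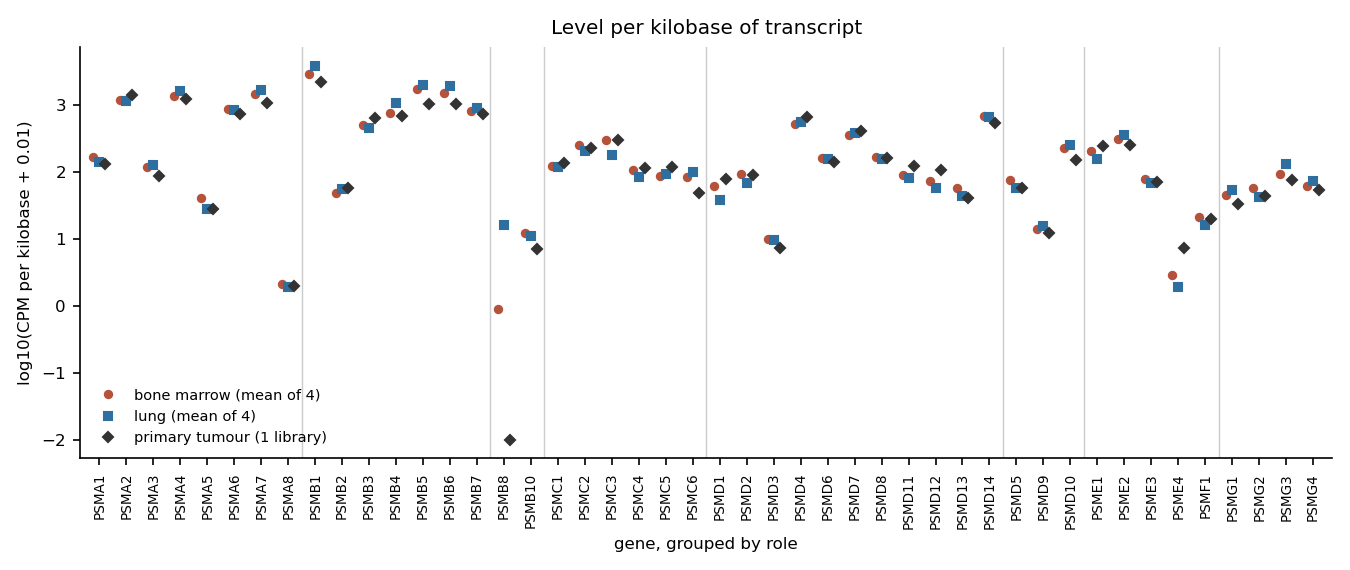
The level of each tested proteasome gene per kilobase of transcript is shown as log10 of CPM per kilobase plus 0.01, with the mean of the 4 bone marrow libraries, the mean of the 4 lung libraries and the 1 primary library. For most genes the points of the 3 groups lie close together; those of PSMB8 are far apart, with 0.894 in bone marrow, 16.1 in lung and 0 in the primary library (CPM per kilobase).

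Bone marrow and lung metastases were compared first, which asks whether tumour cells at these sites differ in proteasome transcripts. No member passed edgeR's quasi-likelihood test at an adjusted p of 0.05, where 0.00587% of the 17042 tested genes did, and the smallest adjusted p of a member was 0.475. DESeq2 likewise called 0 members, with 3.38% of its 13847 genes with an adjusted p called, and limma's voom method called 0. At an unadjusted edgeR p under 0.05, 1 member was higher in bone marrow (6.33% of all tested genes) and 2 were lower (3.88%). In no member did the 4 libraries of one site lie all above or all below those of the other, as was the case for 2.82% of tested genes with bone marrow above lung and for 3.06% with bone marrow below lung. The fitted log2 fold change (bone marrow over lung) was above 0 for 26 members and below 0 for 20, with a median of 0.06 against 0.00 over all tested genes.

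PSMC3, an ATPase of the cap's ring (chromosome 11, 47418769 to 47426473, minus strand, GRCh38), had the smallest p of the members. Its values were 262, 605, 543 and 379.6 CPM in bone marrow 1 to 4, against 287, 234, 330 and 219.8 CPM in lung 1 to 4. The primary library had 438 CPM. Bone marrow 2, 3 and 4 lay above all lung libraries, and bone marrow 1 lay among them. The log2 fold change was 0.74 ± 0.28 (SE), with an unadjusted p of 0.0287 and an adjusted p of 0.475 in edgeR's test.

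PSMD1, the scaffold of the cap's base that docks ubiquitin receptors, had the same layout. It stood at 102, 200, 257 and 235 CPM in bone marrow 1 to 4 and at 164, 101, 119 and 104 CPM in lung 1 to 4, with 252 CPM in the primary library. This gave a log2 fold change of 0.70 ± 0.32 (edgeR, unadjusted p = 0.0537, adjusted p = 0.486). Here too bone marrow 1 was the library that overlapped with lung. Without bone marrow 1, the log2 fold change was 0.94 for PSMD1 and 0.95 for PSMC3, and neither passed edgeR's test (adjusted p = 0.276 and 0.241). With an offset for transcript length, described further on, PSMD1 came to 0.41 and PSMC3 to 0.64.

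PSMB4, a structural beta subunit (chromosome 1, 151399534 to 151401944, plus strand), leaned the other way. It had 810.4, 949, 554 and 582 CPM in bone marrow 1 to 4, then 808, 1006, 1114 and 1254 CPM in lung 1 to 4, and 666 CPM in the primary library. Bone marrow 3 and 4 were below all lung libraries, and bone marrow 1 and 2 overlapped with them. The log2 fold change was -0.53 ± 0.23 (edgeR, unadjusted p = 0.0433, adjusted p = 0.486). PSMG3, a chaperone of alpha-ring assembly, had 85.6, 93.9, 100.2 and 100.2 CPM in bone marrow 1 to 4, 125, 99.6, 195 and 119 CPM in lung 1 to 4 and 77.6 CPM in the primary library, a log2 fold change of -0.50 ± 0.26 (edgeR, adjusted p = 0.5). Lung 2 was the lung library within the range of bone marrow.

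**Figure D3:**
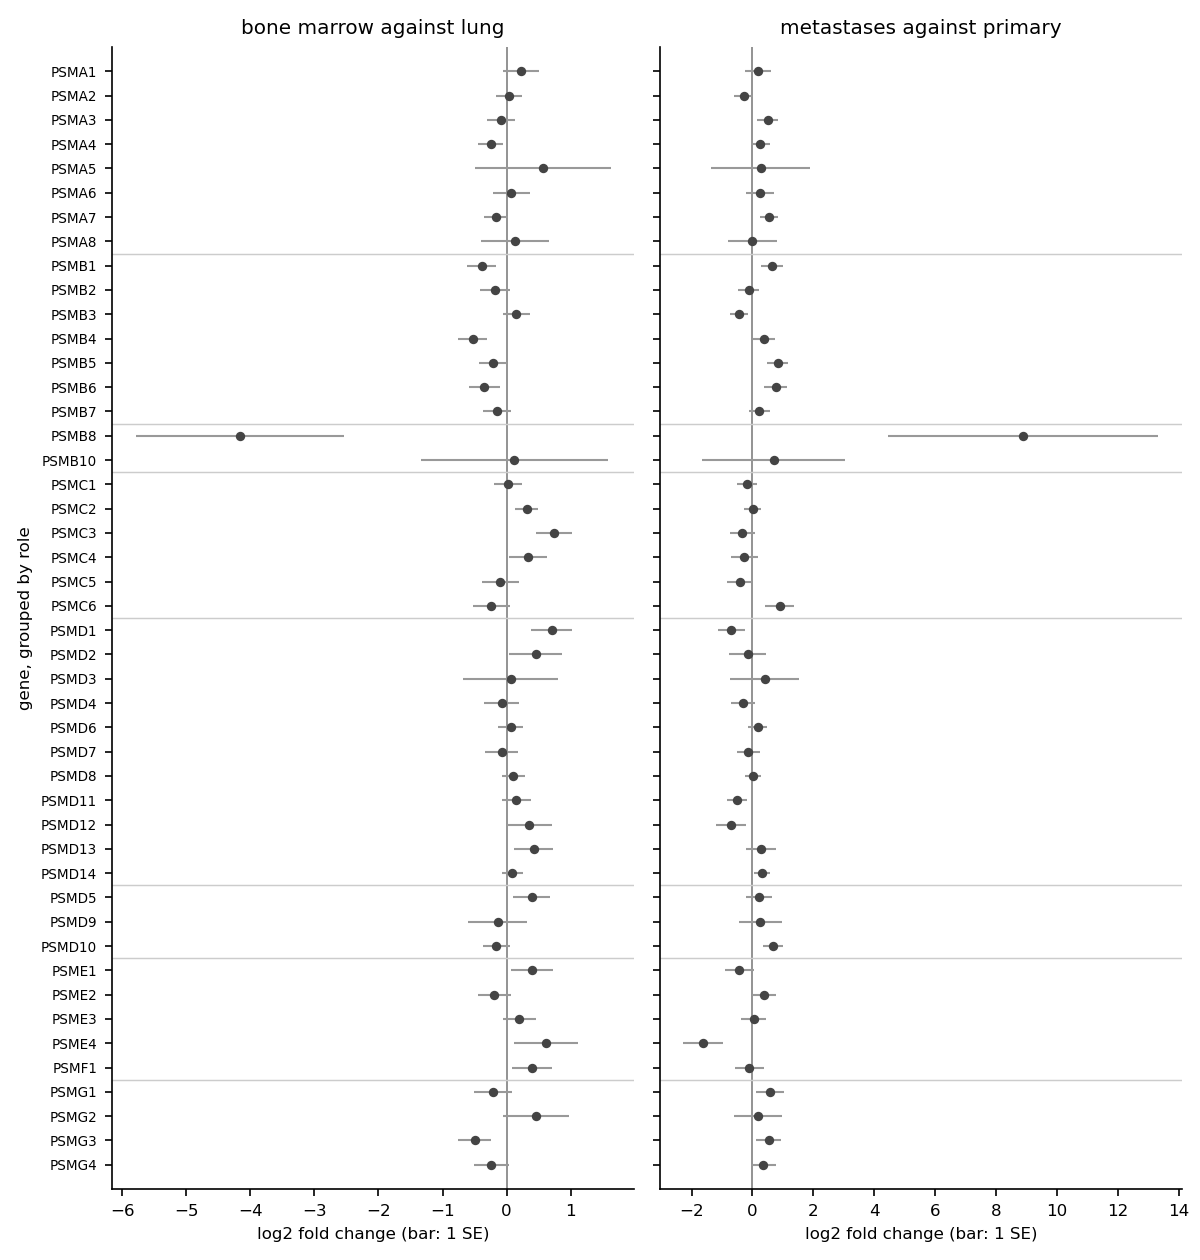
Fitted log2 fold changes of the 46 tested members are shown with bars of 1 SE, at left for bone marrow over lung and at right for the mean of both metastasis sites over the primary library, with grey lines between role groups. Most points lie within 1 of 0 on both sides, and PSMB8, at -4.16 and 8.89, has the widest bars (SE of 1.63 and 4.44), followed by PSMB10 (1.46 and 2.34) and PSMA5 (1.06 and 1.62).

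By role, the members leaned in different directions, though none passed the test. Of the 7 constitutive beta genes, 6 had fold changes below 0 and PSMB3 alone was above, and the median of the 7 was -0.21 on the log2 scale. The 8 alpha genes had a median of 0.05 (5 above 0 and 3 below). Of the 17 cap genes, 13 were above 0 and 4 below, with a median of 0.10, made up of 0.16 for the ATPases and 0.10 for the non-ATPase subunits. The chaperones of cap assembly had a median of -0.14 over 3 genes, those of core assembly -0.22 over 4, and the alternative caps with the inhibitor PSMF1 0.39 over 5. The count of cap genes above 0 was 16 of 17 without bone marrow 1 and 9 of 17 without bone marrow 2. It was also 9 of 17 with a filter of at least 5 CPM in 4 libraries. With library size alone in place of scaling by the trimmed mean of M values (TMM), it was again 9 of 17. That setting moved the median of all tested genes to -0.08. With both bone marrow 1 and lung 3 left out, 4 of the 7 constitutive beta genes were below 0, with a median of -0.12.

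The active-site subunits of the constitutive core did not differ between the sites beyond their spread. PSMB5, the main target of bortezomib, had 1059, 2180, 1801 and 1940.2 CPM in bone marrow 1 to 4 and 2126, 1859.5, 2215 and 1886 CPM in lung 1 to 4. PSMB6 had 789, 1886, 1271 and 1355 CPM in bone marrow 1 to 4 and 1665, 1487, 1876 and 1729 CPM in lung 1 to 4. PSMB7 had 588, 1046, 874 and 675 CPM in bone marrow 1 to 4 and 905, 810.4, 1088 and 719 CPM in lung 1 to 4. In all 3 genes bone marrow 1 was the lowest metastasis library and bone marrow 2 the highest of its site. The log2 fold changes were -0.21 ± 0.22 for PSMB5, -0.35 ± 0.24 for PSMB6 and -0.15 ± 0.22 for PSMB7 (edgeR, adjusted p = 0.765, 0.627 and 0.864).

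That layout was counted over all tested members, PSMB5, PSMB6 and PSMB7 included, after their values were seen. Bone marrow 1 was the lowest library of its site for 26 of the 46 tested members (56.5%, against 24.1% of all tested genes) and bone marrow 2 the highest for 24 (52.2%, against 22.9%). Both held for 18 members (39.1%, against 8.98%). Members and all tested genes differ in level, and whether these shares go beyond that difference was not tested. The summed level of all members was 18019, 24907, 19524 and 19138 CPM in bone marrow 1 to 4, a mean of 20397 ± 3074 (SD, n = 4). In lung it was 22378, 20180.1, 24042 and 21131 CPM, a mean of 21933 ± 1669 (SD, n = 4), and 17979.6 CPM in the primary library. The sites overlapped in this sum.

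**Figure D4:**
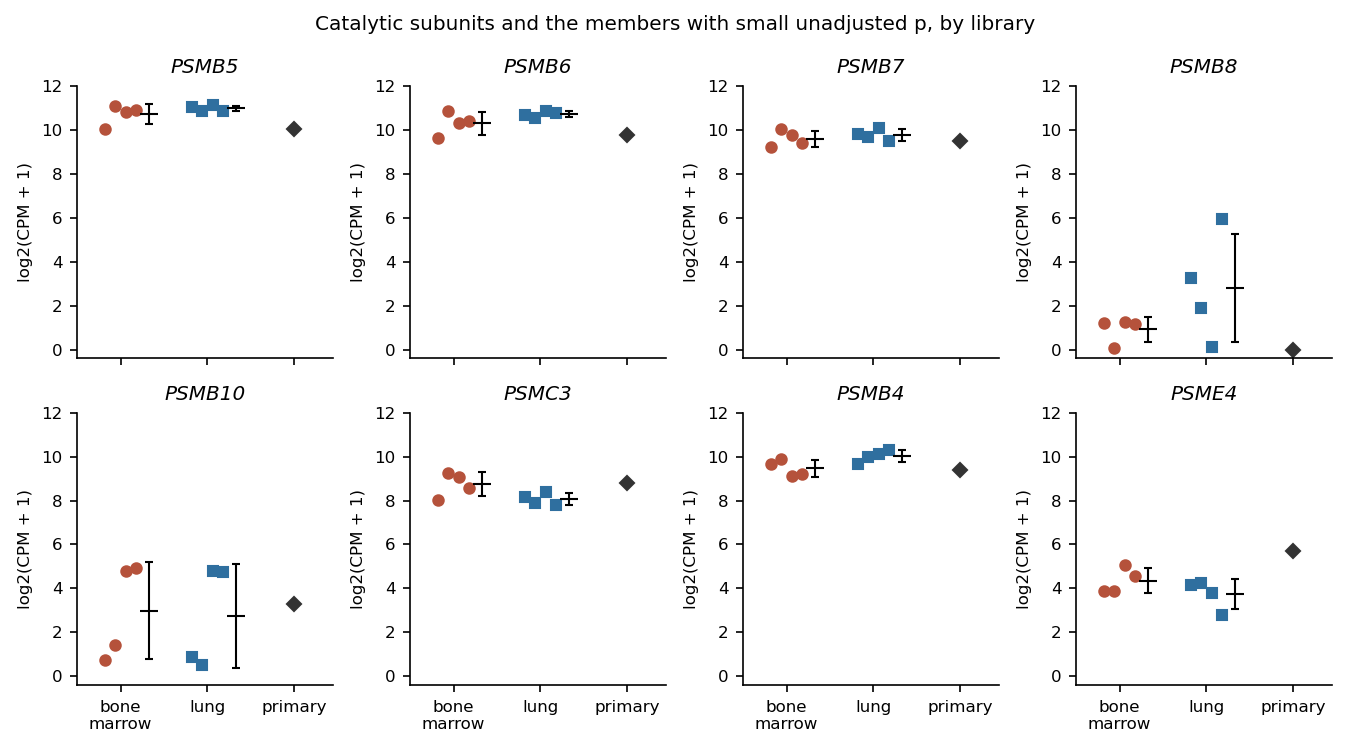
Levels of 8 members are shown as log2(CPM + 1), with a point for each library and, beside each metastasis group, its mean and SD (n = 4; the primary tumour has 1 library). PSMB5, PSMB6 and PSMB7 lie in narrow bands with bone marrow 1 and the primary library low, whereas PSMB10 falls into 2 bands within each site and PSMB8 is high in lung 4.

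The balance of core to cap moved between libraries more than the sum did. Alpha and constitutive beta genes together made up 2.77, 2.34, 1.83 and 2.08 times the summed CPM of the cap genes in bone marrow 1 to 4. The ratio was 2.79, 2.50, 3.78 and 2.59 in lung 1 to 4 and 1.80 in the primary library. Lung 3 stood above all others, and the primary library was the lowest.

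A measure of transcript length moved with this ratio. It is the median shift of 854 genes with transcripts under 1000 bases minus that of 3179 genes with transcripts over 3000 bases, on the log2 scale and relative to each gene's mean. Only genes with a mean of at least 5 CPM were used for it. The measure was 0.19, 0.04, -0.45 and -0.43 in bone marrow 1 to 4, 0.04, 0.10, 0.58 and 0.07 in lung 1 to 4, and -0.56 in the primary library. Core transcripts are shorter than cap transcripts (medians of 954 and 1590.0 bases). With an offset for transcript length in each library, a step added after seeing the data, the ratio was 2.56, 2.51, 2.19 and 2.47 in bone marrow 1 to 4, 2.78, 2.47, 3.14 and 2.49 in lung 1 to 4, and 2.09 in the primary library. The libraries thus lay closer together, with lung 3 and the primary library still at the ends. With that offset the cap's median (log2 fold change, bone marrow over lung) was 0.01, with 10 of 17 genes above 0, and that of the constitutive beta genes was -0.25, with 6 of 7 below 0.

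**Figure D5:**
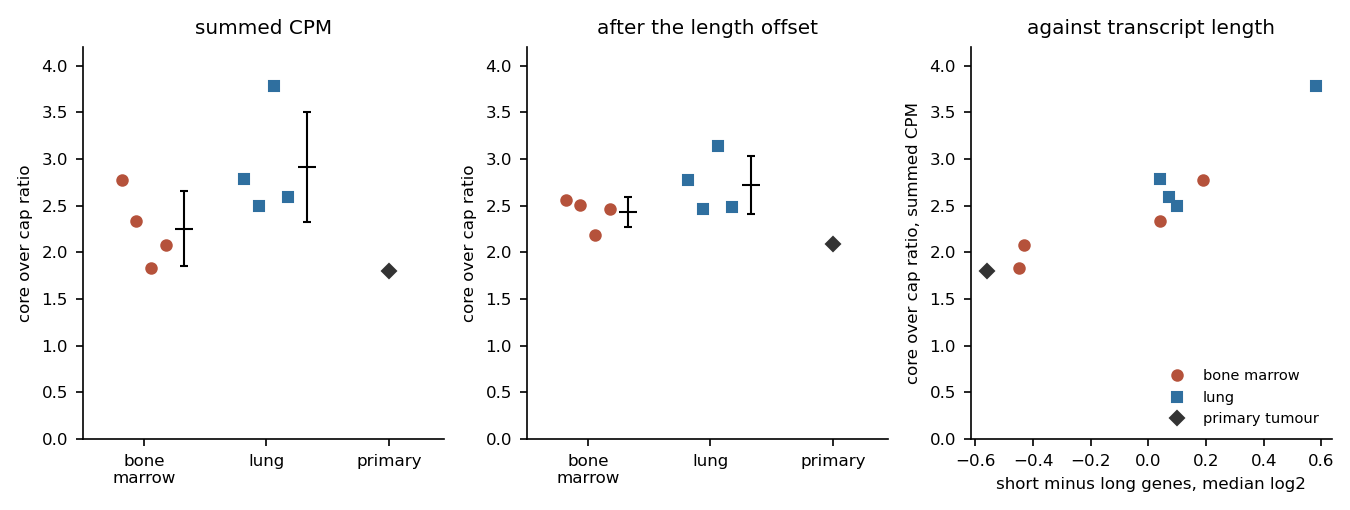
The ratio of summed core CPM to summed cap CPM is shown for each library as measured (left), after the offset for transcript length (middle), and against the shift of short minus long transcripts (right); crosses with bars give the mean and SD of 4 libraries. As measured, lung 3 is highest at 3.78 and the primary library lowest at 1.80; these become 3.14 and 2.09 after the offset.

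The immunoproteasome subunits were low and uneven. PSMB8 (chromosome 6, 32840717 to 32844703, minus strand), which takes the place of PSMB5, had 1.33, 0.061, 1.39 and 1.24 CPM in bone marrow 1 to 4. In lung 1 to 4 it had 8.65, 2.68, 0.0828 and 60.9 CPM, and in the primary library 0 counts, where 3 counts would be 0.23 CPM. Lung 4 was thus far above every other library, lung 1 and 2 lay above bone marrow, and lung 3 lay below 3 of the 4 bone marrow libraries. The log2 fold change was -4.16 ± 1.63, with an unadjusted p of 0.0314 and an adjusted p of 0.475 in edgeR's test and an adjusted p of 0.0672 in DESeq2. Without lung 4 it was -1.91 ± 1.36 (edgeR, adjusted p = 0.656). Set against the limit of 3 counts in the primary library, the lung mean was at least 78.5-fold higher and the bone marrow mean at least 4.37-fold higher, the first of which rests on lung 4. The gene overlaps PSMB8-AS1 on the opposite strand, and no source used here says whether the counting used strand, so reads of the 2 genes cannot be told apart.

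Leukocytes carry PSMB8, so their markers were read beside it. Host leukocytes are mouse cells, so these counts of human genes do not measure how many were present. The summed level of 11 leukocyte markers was 72.8, 65.0, 271 and 24.8 CPM in bone marrow 1 to 4, 23.8, 20.2, 27.3 and 1.74 CPM in lung 1 to 4, and 47.7 CPM in the primary library. Lung 4, the library with the most PSMB8, had the lowest sum. CD53, CD74, TYROBP and SPI1 stood at 0 to 0.0726 CPM there, but were at or under 0.58 CPM in every library. LAPTM5, LCP1 and ITGB2 had 0 CPM in lung 4, PTPRC, the common leukocyte antigen, had 0.218 and SRGN 0.363 CPM. CORO1A (0.654 CPM) and FCER1G (0.436 CPM) were not at their lowest there. Lung 1, which was next in PSMB8, had the highest PTPRC of the 9 libraries, 14.3 CPM against 0.218 to 3.63 CPM in the others. The part of leukocyte RNA in the PSMB8 values was not tested. The share of reads under the deposited heading mouse was 7.15% in lung 4 and 7.0% to 8.09% over all libraries. In bone marrow 1 the shares were 78.77% human, 7.38% mouse and 19% not aligned, so these measures are not exclusive parts of a whole. The mouse share was therefore not taken as a measure of host RNA. The sums in bone marrow were mostly made of LCP1, an actin-bundling protein, with 39.9, 50.2, 233 and 8.15 CPM in bone marrow 1 to 4, and of ITGB2, an integrin of leukocytes, with 15.5, 10.3, 28.3 and 14.7 CPM.

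PSMB10 (chromosome 16, 67934502 to 67937087, minus strand), which takes the place of PSMB7, followed another pattern. It had 0.666, 1.71, 27.0 and 29.5 CPM in bone marrow 1 to 4, 0.848, 0.422, 26.8 and 26.1 CPM in lung 1 to 4, and 8.67 CPM in the primary library. Replicates 3 and 4 were high and replicates 1 and 2 low at both sites, with no library between 1.71 and 26.1 CPM but the primary one. The labels do not say that a replicate number marks a shared mouse or day, and over all tested genes same-numbered libraries did not deviate together. The log2 fold change was 0.12 ± 1.46 (edgeR, adjusted p = 0.989). The libraries with high PSMB10 included both ends of PSMB8: lung 4 had 26.1 CPM of PSMB10 and 60.9 CPM of PSMB8, and lung 3 had 26.8 and 0.0828 CPM.

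PSME1 and PSME2, the interferon-inducible subunits of the activator PA28, were present throughout at levels well above both. PSME1 had 303, 183, 125 and 241 CPM in bone marrow 1 to 4, 168, 94.9, 202 and 180.2 CPM in lung 1 to 4 and 249 CPM in the primary library. PSME2 had 295, 295, 257 and 176 CPM in bone marrow 1 to 4, 267, 209.6, 326 and 361 CPM in lung 1 to 4 and 208 CPM in the primary library. The sites overlapped for both, with log2 fold changes of 0.40 ± 0.33 and -0.19 ± 0.25 (edgeR, adjusted p = 0.697 and 0.839). PSME3, which forms the nuclear PA28 ring, had 162, 278, 245 and 271 CPM in bone marrow 1 to 4, 256, 235, 138 and 203 CPM in lung 1 to 4 and 216 CPM in the primary library (log2 fold change 0.20 ± 0.26).

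Promoter sequences were read for the motifs that interferon signalling uses. RefSeq promoters (GRCh38.p14) were found for 41 members, 50 promoters in all, and the 250 bases upstream of each start were searched on both strands. GAAANNGAAA, the core of the interferon-stimulated response element, occurred in 5 of the 50 (10%), against 3.02% of all 35116 promoters of the same length. Windows of 30 bases around these 5 matches are shown, since they include PSMB10 and PSME2. They are written 5′ to 3′ on the gene's strand, with the match in capitals:
PSMB10, chr16:67936852-67936881, minus strand: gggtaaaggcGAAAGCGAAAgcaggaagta
PSME2, chr14:24146619-24146648, minus strand: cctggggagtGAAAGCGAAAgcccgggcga
PSMG4, chr6:3258904-3258933, plus strand: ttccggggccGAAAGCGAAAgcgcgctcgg
PSMA4, chr15:78540155-78540184, plus strand: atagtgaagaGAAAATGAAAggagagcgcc
PSMB4, chr1:151399495-151399524, plus strand: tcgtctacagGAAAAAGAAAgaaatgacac
PSMB10, PSME2 and PSMG4 hold the same 10 letters, yet their levels differed in spread: PSMG4, an assembly chaperone, stayed within 41.1 and 68.8 CPM over the 9 libraries. PSMB8 has no match to these letters in its promoters. TTCNNNGAA, the gamma-activated site, occurred in 7 of the 50 member promoters (14%) and 6.57% of all. These were promoters of PSMA2, PSMA8, PSMB5, PSMB8, PSMC4, PSMD3 and PSME3, so PSMB5, which PSMB8 replaces, has it too. In PSMB8 it lies in the promoter at chr6:32844048-32844297, while that at chr6:32844680-32844929 has none of these motifs. The PSMB8 match is:
PSMB8, chr6:32844093-32844122, minus strand: aactgtccttTTCTCGGAAaaggcaggggg
A match is a run of letters and was not tested as a binding site.

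Genes of interferon signalling and peptide supply, from a list of 13, gave no call in edgeR. 12 were tested, 2 with fold changes above 0 and 10 below (median log2 fold change of -0.50, bone marrow over lung). STAT2, among the 10, had 17 counts in lung 2 and 0 in every other library. B2M, the light chain of class I molecules, ranged from 42.9 to 200 CPM. NLRC5, an activator of class I genes, had 0 counts in all 9 libraries. IRF1, which drives immunoproteasome genes, had 13.8, 23.7, 45.9 and 12.3 CPM in bone marrow 1 to 4, 42.8, 10.8, 58.1 and 37.0 CPM in lung 1 to 4 and 6.14 CPM in the primary library, its lowest. ERAP2, a peptide-trimming protease, reached 13.7 CPM in lung 4, the library with the most PSMB8, and 0.166 to 1.78 CPM elsewhere. Other genes of the list peaked elsewhere. TAP1 had 0 CPM in lung 4 and was highest in bone marrow 4 (7.76 CPM), and TAP2 was highest in lung 3 (10.3 CPM). IRF1 was also highest in lung 3, and B2M in bone marrow 1. DESeq2 called PDIA3, a disulfide isomerase of the peptide-loading complex, higher in bone marrow (log2 fold change 1.96, DESeq2 adjusted p = 0.0496, edgeR adjusted p = 0.436).

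Metastases were then compared with the primary tumour, where the test asks whether the single primary library lay outside the spread of the metastases. No member passed edgeR's test, and neither did any other gene (0% of 17042), with all members at an adjusted p of 1.0. DESeq2 called 0 members (0.716% of its 13553 genes) and voom 0. At an unadjusted edgeR p under 0.05, 1 member was higher in metastases (1.75% of all tested genes) and 1 lower (3.04%). Fitted log2 fold changes (metastases over primary) were above 0 for 30 members and below 0 for 16, with a median of 0.20 against 0.17 over all tested genes. The primary library lay above all 8 metastasis libraries for 5 members (10.1% of tested genes) and below all 8 for 11 members (7.56%).

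PSMB5 was the member with the higher value in metastases. It had 1057 CPM in the primary library, against the 1059 to 2215 CPM of the metastases given above, so that bone marrow 1 all but equalled it. This gave a log2 fold change of 0.83 ± 0.35 (edgeR, unadjusted p = 0.0416, adjusted p = 1.0). PSMB6 was similar, with 884 CPM in the primary library, above bone marrow 1 and below the other 7 (0.76 ± 0.39, edgeR, unadjusted p = 0.0833). PSMD10, also called gankyrin, which assembles the cap's base, had 229.8, 155, 169 and 157 CPM in bone marrow 1 to 4, 223, 209.6, 183 and 179.6 CPM in lung 1 to 4, and 117 CPM in the primary library, below all 8 (log2 fold change 0.68 ± 0.33, edgeR, unadjusted p = 0.0712).

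PSME4, also known as PA200, caps the core in the nucleus and acts in the breakdown of histones (chromosome 2, 53864067 to 53970840, minus strand). It was the member with the lower value in metastases. Its values were 13.8, 13.8, 32.4 and 22.5 CPM in bone marrow 1 to 4, 17.0, 17.8, 13.0 and 5.81 CPM in lung 1 to 4 and 50.9 CPM in the primary library, above all 8. The log2 fold change was -1.62 ± 0.65 (edgeR, unadjusted p = 0.0349, adjusted p = 1.0), and -1.24 ± 0.65 with the offset for transcript length. PSME4 has the longest coding transcript of the members, at 7099 bases, and the primary library had the lowest shift of short minus long transcripts (-0.56).

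The other members for which the primary library lay above all 8 were PSMB3 (499.8 against 304 to 484 CPM), PSMC5 (181 against 78.7 to 176 CPM), PSMD11 (407 against 199 to 357 CPM) and PSMD12 (363 against 86.3 to 337 CPM). Below all 8, besides PSMB5 and PSMD10, were PSMA3, PSMA7, PSMB1, PSMB8, PSMC6, PSMD14, PSMG1, PSMG3 and PSMG4. All 4 core chaperones and all 3 cap chaperones had fold changes above 0 (medians of 0.45 and 0.26). With the offset for transcript length these medians were 0.16, with 3 of 4 above 0, and 0.22; without lung 2 the core chaperones also had 3 of 4 above 0. For the core genes the median was 0.26 on the log2 scale (12 of 15 above 0), and for the cap -0.15 (7 of 17 above 0). With the offset for transcript length the median over the members was 0.05, against 0.15 over all genes, and those of core and cap were 0.10 and -0.15. The 2 sites share the 1 primary library as their control. Bone marrow over primary had a median of 0.18 over the members (33 above 0) and lung over primary of 0.05 (24 above 0), beside 0.17 and 0.16 over all tested genes. For bone marrow over primary, edgeR called 0 members (0% of all tested genes) and DESeq2 called 0 (0.547% of its 12990 genes). For lung over primary, edgeR again called 0 members (0% of all tested genes), and DESeq2 called 1 (1.35% of its 12403 genes). That member was PSMB8, higher in lung, at adjusted p-values of 0.0458 in DESeq2 and 0.769 in edgeR. It had 0 counts in the primary library, and lung 4 held most of its lung signal.

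The main activator of subunit transcription under proteasome stress is NFE2L1, which binds antioxidant response elements with small MAF proteins. NFE2L1 itself was low, at 4.74, 6.59, 9.10 and 10.6 CPM in bone marrow 1 to 4, 12.4, 9.51, 2.82 and 5.23 CPM in lung 1 to 4 and 10.2 CPM in the primary library. The sites overlapped, and lung 3 was the lowest. NFE2L2, its relative of the oxidative stress response, stood at 68.8 to 131 CPM. None of the 9 genes on the list of regulators passed edgeR's or DESeq2's test between the sites (5 above 0 and 4 below, median log2 fold change 0.05). Among them NGLY1, which activates the NFE2L1 protein by removing its sugars, had 28.2 to 92.7 CPM, and DDI2, the protease that cuts it, had 9.44 to 52.6 CPM.

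TGACNNNGC, the core of the antioxidant response element, was found in 12 of the 50 member promoters (24%), against 10.9% of all promoters of the same length. For 47 of the 50, the first 30 transcribed bases were found in a GENCODE transcript of the gene. For the PSME4 promoter they were not, so its start is less certain. Windows from 1 member of each of 5 roles are shown, with the match in capitals; in PSMC5 and PSME4 it lies on the opposite strand and reads as its reverse complement:
PSMA4, chr15:78540650-78540679, plus strand: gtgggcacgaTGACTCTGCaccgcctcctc
PSMB3, chr17:38752627-38752656, plus strand: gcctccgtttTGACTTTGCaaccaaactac
PSMC5, chr17:63827654-63827683, plus strand: gaccggatctGCTGTGTCAgcgccgccctc
PSMD12, chr17:67366723-67366752, minus strand: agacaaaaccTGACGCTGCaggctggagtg
PSME4, chr2:53971008-53971037, minus strand: cccggcggctGCAGCGTCAccagcagagcc
The values of these 5 genes had no common order over the libraries: bone marrow 1 was the highest of the metastases for PSMB3 (484 CPM) and the lowest for PSMC5 (78.7 CPM), and lung 3 was the highest for PSMA4 (1945 CPM) and the lowest for PSMD12 (86.3 CPM).

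Of the partners of the proteasome, 13 of 15 listed genes were found and tested, 6 with fold changes above 0 in bone marrow over lung and 7 below, and none passed edgeR's test. POMP, which matures the core particle, had 746 to 1531 CPM in bone marrow and 1128 to 1633 CPM in lung. ZFAND5, a zinc-finger protein that stimulates the proteasome, separated the sites. It had 46.0, 32.2, 50.5 and 58.8 CPM in bone marrow 1 to 4, 119, 80.6, 168 and 145 CPM in lung 1 to 4 and 108 CPM in the primary library, so that all bone marrow libraries lay below all lung libraries. Its log2 fold change was -1.45 (edgeR adjusted p = 0.305, DESeq2 adjusted p = 0.00155), and it was the only partner that DESeq2 called.

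Ubiquitin and its delivery showed no call between the sites in edgeR or DESeq2 over 15 genes (9 above 0 and 6 below, median log2 fold change 0.05). UBB, which encodes a string of ubiquitin units, stood at 2446 to 4225 CPM over the 9 libraries.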

How the data were processed

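The deposited table gives estimated counts per gene symbol for 9 libraries. Per the submitters' processing notes, the authors used Trim Galore, Salmon and hg38; no source used here gives versions, annotation or strand setting. The authors also deposited quality measures per library, as percent values and fractions; they were read only as checks. Estimated counts were rounded, and 104 rows of vector and spike-in sequences (at most 0.0159% of a library) were left out. Genes were filtered with filterByExpr, scaled by TMM and tested in 1 model of 3 groups (edgeR 4.0.16, quasi-likelihood, two-sided, Benjamini-Hochberg over 17042 genes, called at 0.05; R 4.3.3). CPM values are TMM-scaled; SE is the log2 fold change divided by the root of F. Alternatives used DESeq2 1.42.0, limma 3.58.1 (voom with quality weights), other scalings and filters, left-out libraries, a replicate block and an offset for transcript length. The offset fits the deviation of log2 CPM on transcript length in each library, over genes with a mean of at least 5 CPM. It was applied to 13531 genes with a length. The fit was tested on simulated counts of known fold change.

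Members and lists were chosen with earlier results of these data known. Genes with values in every library were the active-site subunits, PSME1 to PSME4, and the 5 members with the smallest p in each comparison; PSMA5, PSMD3 and the pathway genes with such values were chosen after their values were seen. Same-numbered libraries of the 2 sites deviated with correlations of -0.0557 to 0.0369, so the numbers were not taken as pairs.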

Additional observations from a re-analysis of the deposited data

Results flagged for a closer look

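Within a site of 4 libraries, a value was set aside for a closer look where its gap to the next library exceeded Dixon's 95% critical share of the whole range, over 28 site groups of the 14 members described in full; chance sets aside about 1 in 20 such groups. PSMB8 met this at both sites. In bone marrow 2 it stood at 0.061 CPM, with 1.24 to 1.39 CPM in the other 3 libraries (gap over range 0.886). The value in bone marrow 2 is 1 count, under the limit of 3 counts, against 18 to 20 counts in the others. In lung 4 PSMB8 stood at 60.9 CPM, with 0.0828 to 8.65 CPM in the other 3 (gap over range 0.859).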

How the results depend on the processing

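No member passed the adjusted threshold of 0.05 in either comparison under any setting run (other scalings and filters, DESeq2, voom, each metastasis library left out, bone marrow 1 and lung 3 left out together, the metastases alone, the replicate block, the length offset). The median log2 fold change of the members ran from -0.03 to 0.10 for bone marrow over lung, and from 0.12 to 0.23 for metastases over primary except with the length offset, chosen after seeing the data, where it moved to 0.05. With the replicate number as a block over the 8 metastases, 0 members passed, 0 had an unadjusted edgeR p under 0.05 and the median was 0.03. The pairing correlations were near 0, and 1 of 4 bone marrow libraries correlated best with its own number. Such correlations cannot decide whether same-numbered libraries share a mouse or day, and the labels do not say. Some fold changes changed sign, each smaller than its SE; the cause was not tested. For PSMB10, bone marrow over lung was -0.01 with a filter of 5 CPM, -0.35 and -0.47 without bone marrow 3 or 4, and -0.25 and -0.29 without lung 1 or 2, out of -0.47 to 0.69 over the left-out libraries; metastases over primary was -0.72 in voom, against 0.70 in edgeR. Bone marrow over lung was 0.01 for PSMB5 and 0.09 for PSMB7 without bone marrow 1 and lung 3, and -0.05 for PSME3 with the length offset. Metastases over primary was -0.04 for PSME3 with library size alone and -0.06 without lung 1 (up to 0.08 over the left-out libraries), and -0.06 for PSMB7 with the length offset. The other 462 alternative values of named members kept their direction and side of the threshold. With 4 libraries a site and 1 primary library, differences of the size seen for most members could not be told from the spread.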
